A study of Mus musculus with 11 samples.

Results

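High glucose was set against normal glucose in cultured mouse cells, with each high glucose library compared only with the normal glucose library that carries the same set number in its deposited file name. Sets 3, 4 and 5 each gave 1 such pair, so 6 of the 11 RNA-seq libraries of the series entered the comparison. A seventh, the high glucose library of set 2, has no control and is given only as an unpaired check. All 7 libraries came from cells that the labels call mouse cavernous endothelial cells, taken from the corpus cavernosum, the erectile tissue of the penis. The cells were grown in M199 medium with 20% fetal bovine serum and heparin, and the glucose treatment lasted 5 days. The labels give no glucose concentration, no strain, age or genotype, no word on what a set was, and no word on whether the libraries came from separate animals or were pooled. The 4 libraries that also received Hsp70 did not enter the comparison itself. They counted in choosing the genes tested and among repeated symbols and, where stated, in alternative fits. Values are log2(normalized count + 1), and a difference is high minus normal glucose on that scale. Of 23238 genes in the files, 18248 had a normalized count of at least 1 in 3 or more of the 11 libraries and were tested.

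Cells sense glucose partly through the paired factors ChREBP (Mlxipl) and MondoA (Mlxip), which bind DNA together with Mlx when glucose-derived sugar phosphates build up. Txnip and its arrestin relative Arrdc4 are their best known targets, and both proteins slow glucose uptake at the plasma membrane. Txnip also binds thioredoxin and so ties glucose supply to redox balance. Hspa1a and Hspa1b encode the stress-inducible cytosolic Hsp70, which is held off in resting cells and switched on by the heat shock factor Hsf1.

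The DNA just upstream of these genes is shown because the comparison turns on them. The 250 bases before each transcription start were taken from RefSeq on GRCm38.p6 (mm10), and all 4 genes had an entry. Capitals mark, in Txnip, 2 E-box-like repeats (CACGNG) spaced 5 bases apart, the layout of a carbohydrate response element; in Arrdc4, an E-box (CACGTG); and in Hspa1a, an inverted pair of heat shock units (GAANNTTC). Motifs were searched on both strands.
Txnip, chr3:96557707-96557956, plus strand: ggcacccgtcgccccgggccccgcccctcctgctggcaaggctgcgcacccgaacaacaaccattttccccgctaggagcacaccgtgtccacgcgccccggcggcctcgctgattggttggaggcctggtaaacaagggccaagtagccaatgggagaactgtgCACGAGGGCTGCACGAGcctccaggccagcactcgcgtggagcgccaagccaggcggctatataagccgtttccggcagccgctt
Arrdc4, chr7:68749239-68749488, minus strand: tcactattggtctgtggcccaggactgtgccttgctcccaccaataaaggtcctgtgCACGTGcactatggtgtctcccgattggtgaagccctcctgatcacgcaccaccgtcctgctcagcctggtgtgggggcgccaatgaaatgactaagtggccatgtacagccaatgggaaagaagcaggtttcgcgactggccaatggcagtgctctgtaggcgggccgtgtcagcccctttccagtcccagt
Hspa1a, chr17:34972157-34972406, minus strand: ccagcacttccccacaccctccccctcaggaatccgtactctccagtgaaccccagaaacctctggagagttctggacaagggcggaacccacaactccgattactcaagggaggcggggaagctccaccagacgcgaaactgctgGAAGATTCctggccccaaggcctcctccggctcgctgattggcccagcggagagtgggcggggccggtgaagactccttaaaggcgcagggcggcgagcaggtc

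Counting back from the base before the start as -1, the spaced E-box pair lay at -85 to -69 in Txnip and was found in 14 of 27025 upstream windows of the same length (0.0518%). The Arrdc4 E-box lay at -193 to -188, and 6.05% of all windows held 1. The heat shock pair of Hspa1a lay at -104 to -97, against 6.78% of all windows. The Hspa1b window (chr17:34959239-34959488) was identical at 247 of the 250 bases and held the same pair at the same place. A match is a stretch of letters and no evidence of binding, and CACGTG was not among the letters of the Txnip window. CCAAT boxes, found in 34.5% of windows, occurred 6 times in the Arrdc4 window and 2 times in that of Txnip.

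The 7 libraries summed to 24.8 to 27.8 M normalized counts. The ribosomal RNA precursor Rn45s took 0.638% of these in the normal glucose library of set 4 and 2.56% in its high glucose partner, and 3.26% to 6.997% in the other libraries. Set 3 stood apart from sets 4 and 5 in the markers of several cell types, in both glucose conditions. Fibroblast markers were the most abundant in all 7 libraries: the 10 markers summed to 187751 to 338323 normalized counts in the normal glucose libraries, 229621 to 414266 in the paired high glucose libraries and 170807 in the set 2 library, the lowest of the 7. The 15 endothelial markers summed to 575 to 2350 and 451 to 2421, the upper ends both being set 3. Pecam1, the endothelial adhesion protein CD31, stood at 9.07 in the normal glucose library of set 3 and at 3.56 and 3.61 in those of sets 4 and 5, and the endothelial tight junction gene Cldn5 at 4.76, 0.09 and 0.24. Cdh5, the endothelial cadherin, stood at 9.01, 6.58 and 6.79 in these controls. All of the 15 markers but Flt1 and Tek were lower in the 4 libraries of sets 4 and 5 than in both of set 3, while Flt1 (6.44, 7.39 and 7.73 in the controls) and Tek (5.41, 6.13 and 6.38) were higher. Tie1 stood at 6.38, 0.15 and 1.36 in the controls of sets 3, 4 and 5, and Vwf at 4.37, 2.09 and 2.82. The defining markers of the labelled cell type were thus uneven in sets 4 and 5. Cldn5, Tie1 and Vwf were low there, and Cdh5 and Flt1 stood well above them. In the set 2 library Cldn5 and Tie1 were both 0. The 11 macrophage and leukocyte markers summed to 5046 and 5743 in set 3 and to 543 to 649 in sets 4 and 5. In bulk RNA, fewer cells of a type and less RNA per cell cannot be told apart.

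Within sets the marker sums moved by up to 1.04. On the log2 scale the endothelial sum differed by 0.04, -0.35 and -0.33 in sets 3, 4 and 5, high minus normal glucose, and the macrophage sum by 0.19, 0.14 and 0.13. The fibroblast sum was 0.29, 0.14 and 0.29 higher. The Schwann cell and nerve sum was 1.04 lower in set 3 (-1.04) and differed by 0.03 and -0.07 in the others. The median difference of its 8 markers was only -0.23 in set 3, and -0.09 and 0.24 in sets 4 and 5. The Schwann cell factor Sox10 stood at 7.71 in normal and 7.69 in high glucose in set 3. In set 3 the smooth muscle sum (-0.64) and the adipocyte sum (-0.53) were also lower, where sets 4 and 5 gave 0.29 and 0.30, and 0.11 and 0.18. The median over smooth muscle markers was -0.70, 0.40 and 0.32 in sets 3, 4 and 5. That over adipocyte markers was 0.36, 0.14 and 0.33, above 0 in set 3 where their sum was lower. A sum follows its most abundant members. The part of these shifts in the gene results was not tested.

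**Figure D1:**
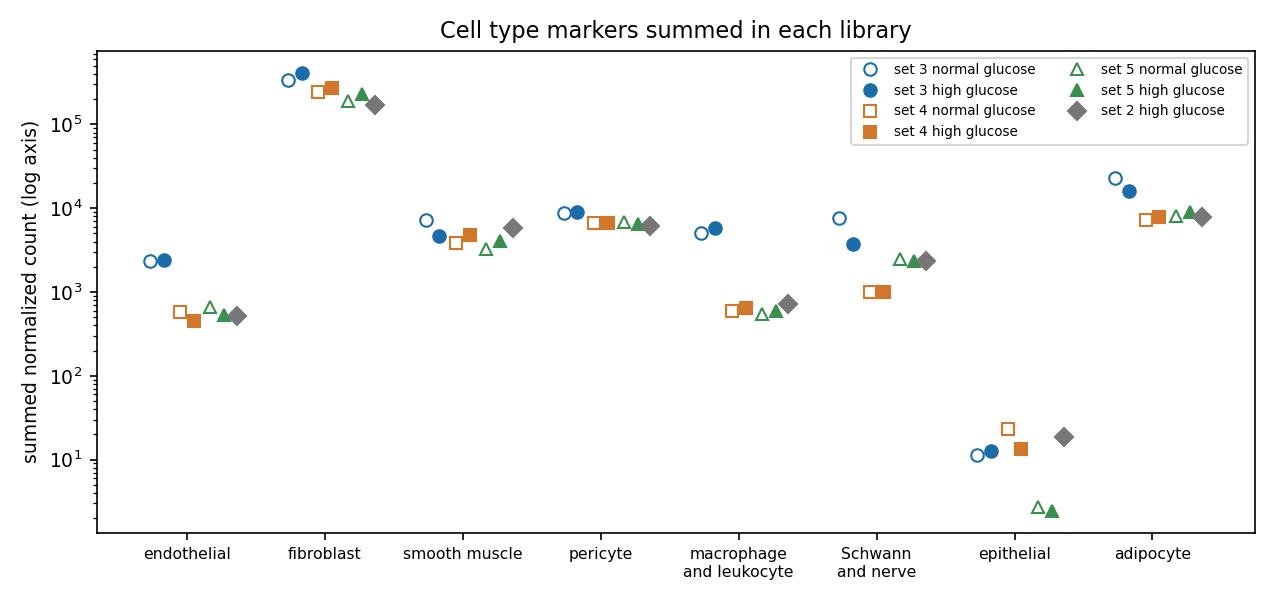
Summed normalized counts (log axis) of 8 cell type marker lists, 1 symbol per library: open symbols are normal glucose, filled symbols high glucose, shapes and colours the sets, and grey diamonds the set 2 high glucose library. Set 3 lies above sets 4 and 5 for endothelial (2350 and 2421) and macrophage markers (5046 and 5743), and fibroblast markers are the highest list in all 7 libraries.

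Txnip was higher in high glucose in each set. In normal glucose it stood at 10.02, 11.23 and 10.89 in sets 3, 4 and 5, and in high glucose at 11.80, 11.94 and 11.94. The groups did not overlap, a pattern that 2.47% of all genes tested showed upward and 3.44% downward, and the high glucose libraries lay close together (SD 0.0838, n = 3) where the normal glucose libraries were spread (SD 0.625, n = 3). The paired difference was 1.18 (SE 0.195, 95% interval 0.72 to 1.63), or 2.26-fold, with adjusted p = 0.689 by limma over all genes tested and an unadjusted p of 0.000443. The within-set differences were 1.78, 0.71 and 1.04, widest in set 3, where the control was lowest. The set 2 library stood at 11.90, inside the narrow band of the other high glucose libraries. Gm15441, an antisense gene that spans Txnip on chromosome 3 (96555765 to 96566801, mm10; Txnip 96557957 to 96561883), gave 1.94, 0.69 and 0.95. No source used here says whether counting used strand, so reads of the 2 genes cannot be told apart.

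Arrdc4 (chromosome 7, 68736995 to 68749241) was also higher in every set, by a smaller step. It stood at 11.16, 11.48 and 11.82 in normal glucose and at 11.81, 11.84 and 12.08 in high glucose. The groups overlapped, because the set 5 control lay as high as the set 3 high glucose library. Its paired difference was 0.42 (SE 0.121, 95% interval 0.14 to 0.70; adjusted p = 0.912 by limma), from 0.65, 0.35 and 0.26. Set 3 again gave the widest difference from the lowest start, and the set 2 library stood at 11.97, above all 3 controls.

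Hspa1a was 0.66, 0.45 and 0.48 higher in the 3 sets. Its levels were 8.28, 8.52 and 8.37 in normal and 8.94, 8.97 and 8.86 in high glucose, with no overlap, as for 2.47% of all genes tested upward. The paired difference was 0.53 (SE 0.126, 95% interval 0.24 to 0.83; adjusted p = 0.885 by limma). Its near-identical copy Hspa1b gave 0.64, 0.37 and 0.51, for a paired difference of 0.51 (SE 0.123; adjusted p = 0.885 by limma), and no source used here says how reads fitting both copies were counted. In the set 2 library they stood at 9.32 and 9.61, above all 6 paired libraries in both cases. With 3 pairs the smallest two-sided p of an exact sign-flip test is 0.25, so no single gene can be called that way.

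**Figure D2:**
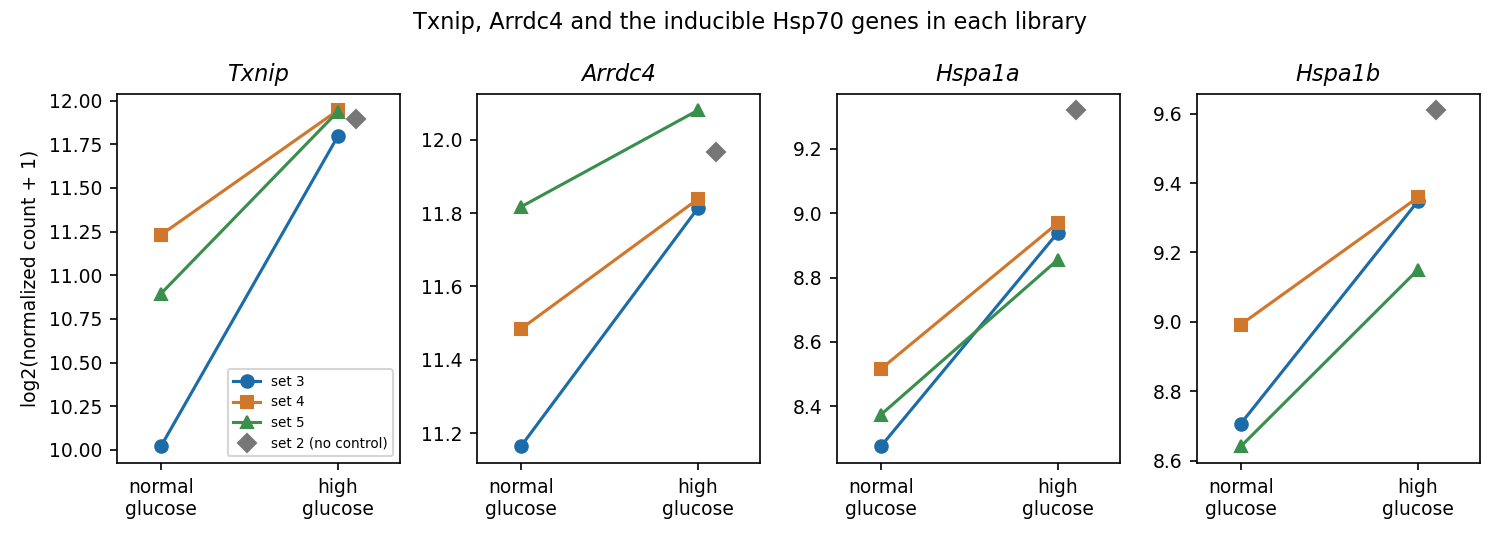
Level of Txnip, Arrdc4, Hspa1a and Hspa1b, as log2(normalized count + 1), in each library, with a line joining the 2 libraries of a set and a grey diamond for the set 2 high glucose library. All 12 lines slope upward, and for Txnip they end within 11.80 to 11.94.

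The other genes of the glucose-sensing list lay on both sides of 0. Of all genes tested, 11.3% were higher in all 3 sets and 14.3% lower. Of the 11 list members tested, those 2 were higher in all 3 sets, and 3 were lower in all 3 (Mlxipl, Mlx and Bhlhe40). Mlxipl, which encodes ChREBP itself, stood at 6.80, 6.86 and 6.95 in normal glucose and at 5.81, 5.84 and 6.45 in high glucose. Its groups did not overlap, as for 3.44% of all genes tested downward. Its difference was -0.84 (SE 0.208, adjusted p = 0.885 by limma). The set 2 library, at 6.75, lay just below the 3 controls and above the 3 paired high glucose libraries. Bhlhe40, a clock repressor, gave -0.33, -0.90 and -0.42. Mlxip, which encodes MondoA, gave -0.06.

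Among 11 glucose transporters tested, 2 were higher and 2 lower in all 3 sets (18.2% each), beside 11.3% and 14.3% of all genes tested. The lower ones were Slc2a1, the widely expressed GLUT1, at -0.12, -0.55 and -0.21, and Slc2a6, at -0.64, -0.43 and -0.12. Slc2a13, a proton-coupled inositol carrier, gave 0.94, 0.38 and 0.02. In glycolysis and pyruvate use 8 of 27 members were lower and 2 higher in all 3 sets. Hk2, an inducible hexokinase that traps glucose in the cell, was lower by a similar amount in each set (-0.32, -0.42 and -0.41), and Gpi1, the next enzyme in the pathway, gave -0.63, -0.19 and -0.19. Pdk2, a kinase that shuts off pyruvate dehydrogenase, gave 0.14, 0.43 and 0.62, and Pfkfb4, which makes and breaks down an activator of glycolysis, gave 0.51, 0.48 and 0.40. The median of the glycolysis list was -0.03, beside -0.00155 over all genes tested, and turned to 0.02 under quantile normalization and with Rn45s left out; quantile normalization left 4 members lower and 4 higher. Of 14 polyol, hexosamine and glyoxalase genes, the side routes of glucose linked to diabetic damage, 4 were higher and 2 lower in all 3 sets. Glo1, which detoxifies methylglyoxal, gave 0.16, 0.20 and 0.22, and aldose reductase (Akr1b3) 0.16, 0.03 and 0.71. None of these genes passed the adjusted threshold.

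Over all 18248 genes limma, with the set as a block, called 0 at an adjusted p under 0.05. At an unadjusted p under 0.05 there were 933 genes, or 5.11%: 391 higher (2.14%) and 542 lower (2.97%). The split turned to 566 higher and 400 lower with Rn45s left out and totals rescaled, and to 689 and 459 without set 5. It was 214 and 205 without set 4, 403 and 525 under quantile normalization, and 350 and 611 with median centring. The smallest adjusted p was 0.689. The median standard error was 0.176, and 0.127 over the 9124 genes above the median level. The 3 sets shared little across genes: over those 9124 genes, Pearson's r between the within-set differences was 0.165 for sets 3 and 4, 0.167 for sets 4 and 5, and -0.238 for sets 3 and 5. These pairs share no library, and genes are not independent replicates. Set 3 spread widest, with an SD of 0.395 over these genes, against 0.196 in set 4 and 0.252 in set 5.

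A difference of at least 0.5 in the same direction in all 3 sets was rare among genes above the median level: 4 of 9124 were higher (0.0438%) and 10 lower (0.11%), beside 1.03% and 0.975% of all 18248 genes. Ranked by the within-set difference nearest 0, the 10 highest were Kera, Txnip, Rn4.5s, Ppp1r3c, Kcnab1, Arsj, Hspa1a, Srpx, Lipe and Ackr4. The ranking used the same values, so these are a description. Kera encodes keratocan, a small leucine-rich proteoglycan of collagen matrix. It stood at 8.86, 7.08 and 7.002 in normal and 9.81, 8.15 and 7.85 in high glucose, and its differences of 0.95, 1.07 and 0.85 were far closer to each other than the sets were in level. The set 2 library stood at 6.78, below all 3 controls. Ppp1r3c, which docks a phosphatase on glycogen and promotes its storage, gave 0.80, 0.47 and 0.59. Lipe, the hormone-sensitive lipase, gave 0.45, 0.68 and 0.58. Kcnab1, a potassium channel subunit, gave 0.66, 0.55 and 0.47, and the secreted protein gene Srpx 0.64, 0.52 and 0.45. Arsj, an arylsulfatase, gave 0.46, 0.46 and 0.49 and was without overlap between the groups, as were 2.47% of all genes tested upward. Ackr4, a scavenging chemokine receptor, gave 0.42, 0.71 and 0.60. Rn4.5s, a small noncoding RNA, gave 0.81, 0.63 and 0.57, although its level was 12.81 in the set 4 control and 8.45 and 8.85 in the others. Just outside the 10, S1pr1 gave 0.42, 0.64 and 0.42 and Sept6 0.47, 0.42 and 0.44.

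The 10 lowest were Uap1l1, Ctsk, Clic5, Nkain1, Hmga2, Fam20c, Hvcn1, Appl2, Lgals3 and Vegfb. Ctsk, the collagen-degrading lysosomal protease cathepsin K, stood at 12.10, 13.29 and 13.12 in normal glucose and at 11.25, 12.17 and 12.48 in high glucose. Each high glucose library lay below its partner, by 0.85, 1.12 and 0.65, while the groups overlapped across sets. Its paired difference was -0.87 (SE 0.127; adjusted p = 0.689 by limma). Uap1l1, a relative of the enzyme that makes UDP-N-acetylglucosamine, stood at 10.70, 11.08 and 11.30 in normal and at 9.79, 10.36 and 10.65 in high glucose, without overlap, for a difference of -0.76 (SE 0.113). Hmga2, a chromatin protein of growing and fetal cells, gave -0.73, -0.60 and -0.61. Fam20c, the kinase of secreted proteins, gave -0.71, -0.82 and -0.59. Lgals3, which encodes galectin-3, gave -0.50 in all 3 sets. The angiogenic ligand Vegfb gave -0.78, -0.56 and -0.50 with no overlap between the groups. Of all genes tested, 3.44% had no overlap downward, as Vegfb and Uap1l1 did. Clic5 and Hvcn1, an intracellular chloride channel protein and a proton channel, gave -0.63, -0.82 and -0.66, and -0.54, -0.89 and -0.69. Nkain1 gave -0.63, -0.62 and -0.98, and the endosomal adaptor Appl2 gave -0.50, -0.59 and -0.59. The next in rank were Gpnmb (-0.97, -0.74 and -0.47) and Cspg4 (-0.67, -0.46 and -0.50).

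The set 2 high glucose library did not stand on the high glucose side for most of these 20 genes. Txnip (11.90) and Hspa1a (9.32) lay above all 3 controls and Appl2 (10.94) lay below all 3. Kera (6.78), Ppp1r3c (7.88) and Srpx (7.33) lay below all 3 controls, opposite to their direction within sets, and Uap1l1 (11.40), Clic5 (11.13), Nkain1 (9.84) and Fam20c (12.16) lay above them. Ctsk (13.28), Hmga2 (12.98), Hvcn1 (9.40), Lgals3 (12.11), Vegfb (11.09), Lipe (8.29), Kcnab1 (8.16), Arsj (7.87), Ackr4 (7.46) and Rn4.5s (9.29) lay within the range of the controls. The level of a gene in a set without a control cannot be told apart from the difference between sets.

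**Figure D3:**
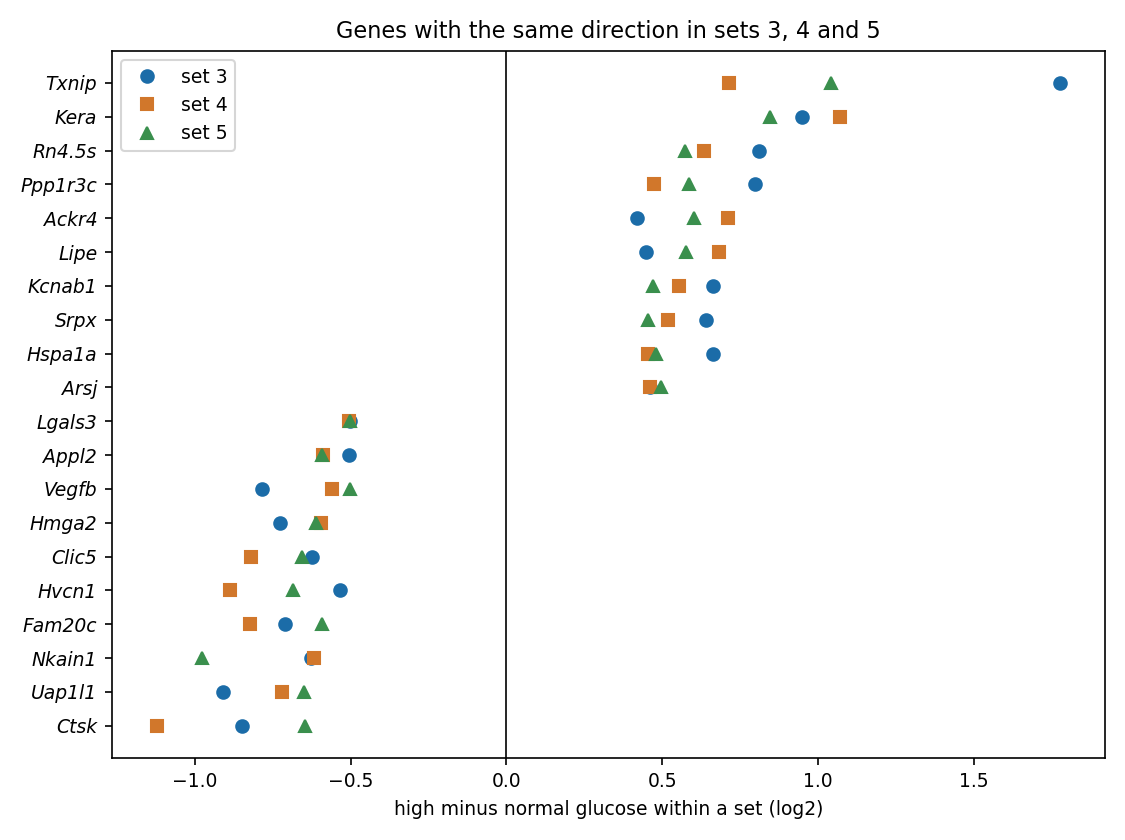
High minus normal glucose within sets 3, 4 and 5 (log2, horizontal axis) for the 20 genes ranked highest and lowest by their difference nearest 0, 1 symbol per set. Lgals3 sits at -0.50 in all 3 sets, and Txnip spreads from 0.71 to 1.78.

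Among the 29 pathway lists, that of autophagy and lysosome genes had the largest share on 1 side: 14 of 28 were lower in all 3 sets (50.0%) and 1 was higher, beside 14.3% and 11.3% of all genes tested. Lysosomes break down cell material with acid hydrolases, and autophagy delivers cargo to them. The list's median was -0.18, -0.21 and -0.06 in sets 3, 4 and 5, beside 0.00, 0.01 and -0.03 over all genes. At an unadjusted p under 0.05 by limma, 7 members were lower and 0 higher, beside 2.97% and 2.14% of all genes, and 0 passed the adjusted threshold. Sqstm1, the cargo receptor p62, gave -0.42, -0.40 and -0.31. Atg7, which starts the conjugation of autophagy proteins, gave -0.29, -0.40 and -0.70, and the sialidase Neu1 gave -0.20, -0.69 and -0.38. Tfeb, the factor that switches on lysosomal genes, was the 1 member higher in all 3 sets (0.41, 0.14 and 0.21). The set 2 library stood above all 3 controls for Neu1 (9.27) and within their range for Sqstm1 (14.88) and Atg7 (10.20). The count of 14 became 10 under quantile normalization and 9 with Rn45s left out and totals rescaled. The median difference over all genes moved as well, from -0.00155 to 0.00088 and 0.04. Here and for the other lists, counts under these settings are given without the share of all genes under the same setting. From these counts alone, a change of the list cannot be told apart from a shift of all genes. Leaving out set 3, 4 or 5 put 15, 15 and 20 members lower in both remaining sets, beside 27.6%, 25.8% and 25.3% of all genes. The 14 members lower in all 3 sets are lower in any 2 of them, so each of these counts holds them and is no separate support.

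**Figure D4:**
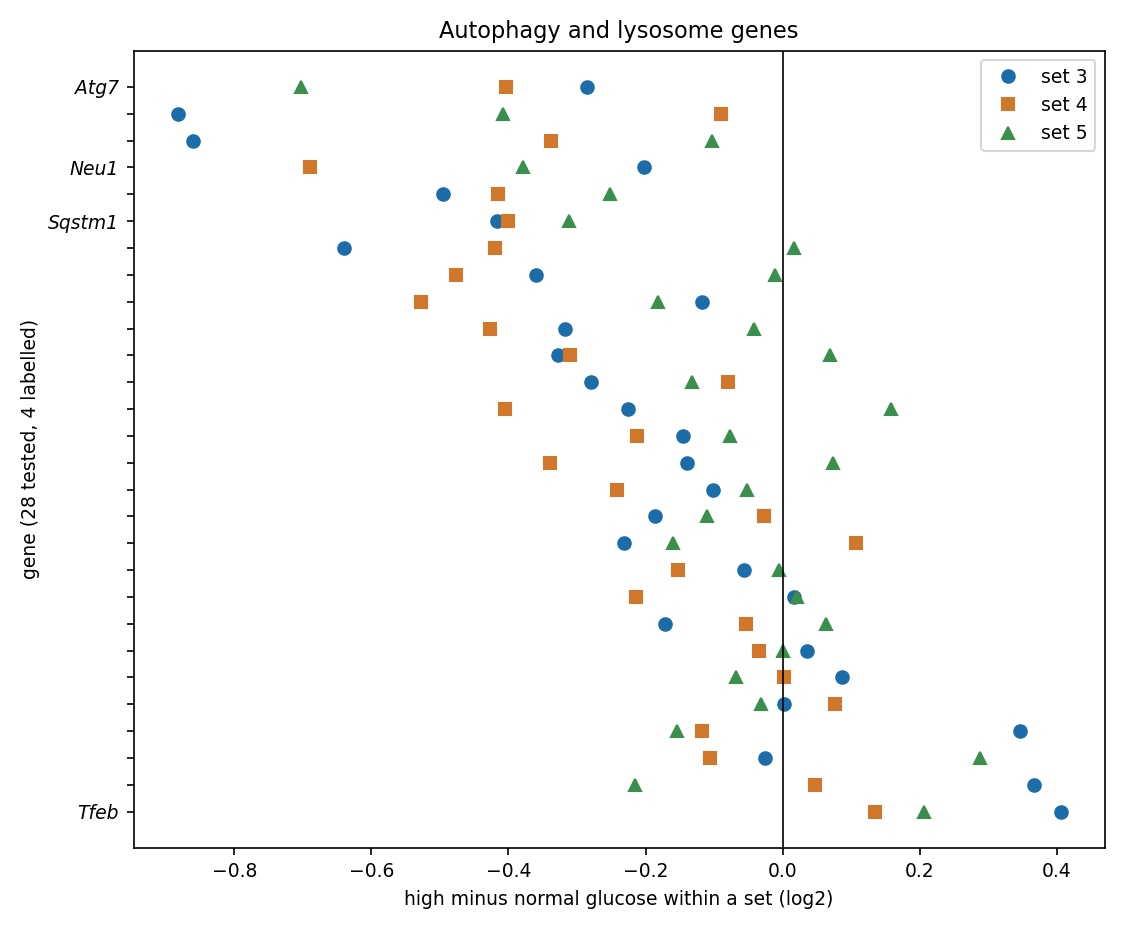
High minus normal glucose within each set (log2) for the 28 autophagy and lysosome genes tested, ordered by their mean difference, with labels for the 4 genes described in the text. Sets 3 and 4 lie below 0 for most genes, set 5 lies nearer 0, and Tfeb is the gene above 0 in all 3 sets.

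ATF4 targets, which feed amino acid synthesis and uptake under stress, also lay on the lower side: 10 of 34 were lower in all 3 sets (29.4%) and 0 higher, with 8 lower at an unadjusted p under 0.05 by limma. Of all genes tested, 14.3% were lower and 11.3% higher in all 3 sets, and 2.97% were lower at that p. That this list lay below 0 within these sets was known when it was chosen, so the count is no independent support. Atf4 itself stood at 11.72, 11.05 and 11.93 in normal and 11.41, 10.66 and 11.35 in high glucose, a difference of -0.43 (SE 0.113). Ddit3, the stress factor CHOP, gave -0.66, -0.38 and -0.38. Stc2, a secreted glycoprotein hormone, gave -0.40, -0.48 and -0.49. Phgdh, the first enzyme of serine synthesis, gave -0.39, -0.38 and -0.95. The list median was -0.13, -0.09 and -0.39 in the 3 sets. In the set 2 library Ddit3 (11.29) and Atf4 (12.03) stood above all 3 controls.

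Of 26 matrix proteases and their inhibitors, 10 were lower in all 3 sets (38.5%) and 1 higher, with 7 lower at an unadjusted p under 0.05 by limma. The shares over all genes tested were 14.3%, 11.3% and 2.97%. The stromelysin Mmp10 gave -0.74, -0.56 and -0.37 and had the smallest p of the list (paired difference -0.56, SE 0.119; adjusted p = 0.871 by limma). Mmp11 gave -0.28, -0.80 and -0.32. The membrane-bound collagenase Mmp14 was 1.25 and 0.70 lower in sets 3 and 4 (-1.25 and -0.70) but 0.00 in set 5. Of 29 collagen and matrix genes, 8 were lower and 5 higher in all 3 sets, and 3 were lower under quantile normalization. Col3a1, a fibrillar collagen, gave 0.20, 0.35 and 0.51, whereas Col6a3, of the beaded filaments, gave -0.18, -0.32 and -0.46.

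Respiratory chain and ATP synthase subunits were small in difference and mostly of 1 sign: 16 of 48 were lower in all 3 sets (33.3%) and 1 higher, and 0 reached an unadjusted p under 0.05 by limma. For this and the next lists, 14.3% of all genes tested were lower in all 3 sets and 11.3% higher. Atp5b, the catalytic ATP synthase subunit, gave -0.31, -0.23 and -0.21, and Cox5b -0.30, -0.20 and -0.16. The count of 16 became 9 with Rn45s left out and 10 under quantile normalization, and the median of -0.07 became -0.02 and -0.06. Of 25 cholesterol synthesis genes, 8 were lower in all 3 sets and 0 higher, with 5 lower under quantile normalization. Their median was -0.22, -0.14 and -0.01, and Msmo1, a sterol oxidase, gave -0.78, -0.33 and -0.15. Of 32 fatty acid and lipid droplet genes, 7 were lower and 6 higher. The droplet coat genes differed in direction: Plin4 gave -0.74, -0.42 and -0.48 and Plin2 -0.12, -0.55 and -0.42, whereas Plin1, the coat of fat cells, gave 0.36, 0.58 and 0.52. Hormone-sensitive lipase, which acts on droplets coated by Plin1, was among the 10 highest genes above.

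**Figure D5:**
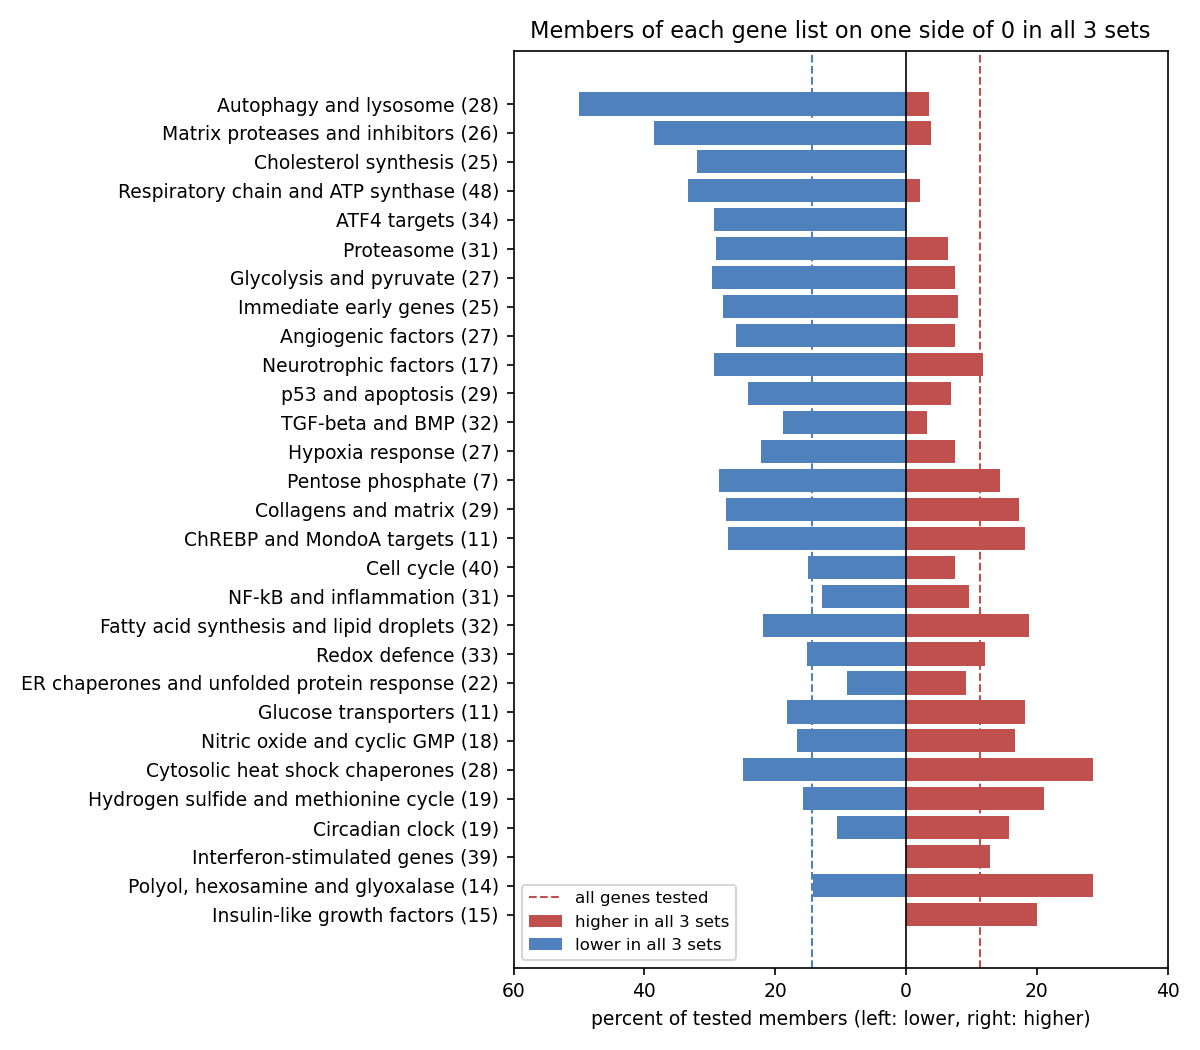
Percent of the tested members of each of 29 pathway lists that were higher (right) or lower (left) than normal glucose in all 3 sets, with the number tested in brackets. Dashed lines mark 11.3% and 14.3%, the shares over all 18248 genes; the autophagy and lysosome list reaches 50.0% on the left.

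Hypoxia response genes gave 6 of 27 lower (22.2%) and 2 higher (7.41%) in all 3 sets, beside 14.3% and 11.3% of all genes tested. Hk2, Slc2a1 and Bhlhe40 were among the lower ones. Cytosolic heat shock chaperones split: 8 of 28 were higher and 7 lower in all 3 sets, with a median of 0.02; the 7 became 1 under quantile normalization and 4 with Rn45s left out. Beside Hspa1a and Hspa1b, the higher side held Hspa4l (0.91, 0.39 and 0.06), a nucleotide exchange partner of Hsp70, and Dnaja1 (0.44, 0.09 and 0.17), a J-domain co-chaperone. The lower side held Hsp90aa1 (-0.19, -0.15 and -0.10), Hspb1 (-0.20, -0.06 and -0.38), Hspa8, Hsp90ab1, Bag3, Hspe1 and Dnajb6. None of the 28 chaperones but Hspa1a, Hspa1b and Hspa4l had an unadjusted p under 0.05 by limma.

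The 3 enzymes that make the signaling gas hydrogen sulfide showed no shared direction. Cth (cystathionine gamma-lyase), which the study is named for, gave -0.10, 0.02 and -0.30, a difference of -0.13 (SE 0.132, 95% interval -0.43 to 0.18). Cbs gave 0.57, -0.07 and -1.02 and Mpst -0.58, 0.33 and 0.23. Of the 19 genes of hydrogen sulfide and the methionine cycle 4 were higher (21.1%) and 3 lower (15.8%) in all 3 sets, beside 11.3% and 14.3% of all genes tested. Papss1, which activates sulfate, gave 0.29, 0.39 and 0.31, and Mat2b, a regulatory subunit of S-adenosylmethionine synthesis, gave 0.49, 0.18 and 0.42. Of 33 redox genes, 5 were lower (15.2%) and 4 higher (12.1%) in all 3 sets, near the shares of all genes. With median centring 8 were lower, and with Rn45s left out 3 were. Heme oxygenase (Hmox1) gave -0.40, -0.60 and -0.03 and Cybb, the oxidase subunit of phagocytes, -0.28, -0.37 and -0.68. The extracellular superoxide dismutase Sod3 gave 0.27, 0.27 and 0.30, nearly the same step from a level of 15.53 in the set 3 control and 13.44 and 13.40 in the other controls.

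Endothelial, angiogenic and nerve-support genes were mixed. Nos3, the endothelial nitric oxide synthase, gave -0.06, 0.10 and 1.62, the last from levels of 1.32 and 2.94, and Pecam1 gave -0.06, 0.95 and 0.12. Cdh5, the endothelial cadherin, gave 0.51, -0.65 and -0.43. Vegfa stood at 13.29 to 13.44 in all 6 paired libraries, and at 12.996 in the set 2 library, with a paired difference of 0.00143 (SE 0.108, 95% interval -0.25 to 0.25). Of 27 angiogenic genes, 7 were lower (25.9%) and 2 higher (7.41%) in all 3 sets, beside 14.3% and 11.3% of all genes tested. The Vegf co-receptor Nrp2 gave -0.32, -0.19 and -0.30, and Ackr3, a scavenger of Cxcl12, gave 0.38, 0.26 and 0.71. Cxcl12 itself gave -0.45, -0.20 and -0.01, and Angpt1, the ligand of Tie2, 0.66, 0.22 and -0.06. Of 18 nitric oxide and cyclic GMP genes, 3 were higher and 3 lower (16.7% each), near the shares of all genes. Cav1, of membrane caveolae, gave 0.45, 0.22 and 0.20, and Prkg1, the cyclic GMP-dependent kinase, 0.51, 0.40 and 0.01. Of 17 neurotrophic genes, 5 were lower and 2 higher. The neurotrophin receptor Ngfr gave -0.37, -0.12 and -0.58, and Gdnf -0.15, -0.42 and -0.42. Ngfr is itself 1 of the 8 Schwann cell and nerve markers summed above, so it is no separate reading of that sum. Bdnf gave -0.18, -0.10 and -0.31 and the growth factor Ptn 0.14, 0.29 and 0.40.

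Interferon-stimulated genes went opposite ways between sets. Their median was -0.42 in set 3, 0.17 in set 4 and 0.36 in set 5. In all 3 sets 5 of 39 were higher (12.8%) and 0 lower, beside 11.3% and 14.3% of all genes, with 2 higher under quantile normalization. In both sets 4 and 5, 34 of 39 were higher, beside 24.7% of all genes. The chemokine Cxcl10 gave 0.02, 0.19 and 1.78, and Cmpk2 gave -0.00161, 0.23 and 1.44. With 1 pair per set the difference between sets was not tested.

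Fibroblast markers, whose direction was also known when they were listed, lay mostly above 0: 5 of 10 in all 3 sets and 0 lower, with 3 at an unadjusted p under 0.05 by limma. Of all genes tested, 11.3% were higher and 14.3% lower in all 3 sets, and 2.14% were higher at that p. The collagen-binding proteoglycan Lum stood at 12.56, 10.44 and 10.13 in normal and 12.74, 11.13 and 11.06 in high glucose, a difference of 0.60 (SE 0.156; adjusted p = 0.896 by limma). Dcn, a related proteoglycan, gave 0.56, 0.03 and 0.59. The set 2 library stood below all 3 controls for Lum (9.997) and Dcn (15.17), and for the summed markers given above. Of 15 insulin-like growth factor genes, 3 were higher and 0 lower in all 3 sets. Igf1 gave 0.24, 0.46 and 0.21, from 12.41 to 12.90 in normal glucose to 12.83 to 13.14 in high glucose, and stood at 10.96 in the set 2 library.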

How the data were processed

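RNA of cells after 5 days of glucose treatment was made into libraries with the Clontech SMARTer stranded kit, as the labels state. The authors deposited 1 file per library with log2 values, read here as log2(normalized count + 1) because none lies below 0 and the back-transformed values sum to 24.8 to 27.8 M per library; no source states the pseudocount. TopHat, edgeR and mm10 appear in the submitters' processing notes, with no role or version; no source used here gives the normalization, annotation, strand setting or handling of shared reads. The 6 libraries of sets 4 and 5, those with Hsp70 included, hold 0 for the same 2753 genes, against 5146 to 5850 genes at 0 in the 3 libraries of sets 2 and 3 used here, so low values were not made alike across sets. Repeated symbols were reduced to the row of higher mean (44 dropped).

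The deposited log2 values of 6 libraries were fitted with limma 3.58.1 in R 4.3.3, with group and set as terms, a trended prior, robust variances and Benjamini-Hochberg adjustment at 0.05 over 18248 genes. The script was tested on simulated data. Sets pair the libraries: after taking out group means, those of 1 set correlated at 0.594, 0.302 and 0.285, and those sharing a title number at -0.224, -0.357 and 0.137. The pairing was less sharp between sets 4 and 5, whose cross pairs correlated at 0.118 and 0.137. By mean absolute log2 difference the set 5 high glucose library lay as near the set 4 control (0.407) as its own (0.412). Every p measures the spread between these samples, since nothing says that they were separate cultures or animals. Lists (37, with 777 of 779 genes tested) were described by counts and medians, without a set test.

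The members and lists were chosen with earlier results of these data known. Named genes were the markers, the 10 highest and 10 lowest by the within-set difference nearest 0 among genes above the median level without predicted-gene names, 11 genes of the study's question, and up to 4 of each list by smallest unadjusted p; a few of these are not reported here. Others were named after their values were seen: S1pr1, Sept6, Gpnmb, Cspg4, Tfeb, Mlx, Mlxip, Tek, Cldn5, Tie1, Vwf and Sox10. So were the 7 heat shock chaperones lower in all 3 sets and the genes under other observations. GENCODE M21 gave positions for 104 of 105 named genes. Figures used matplotlib 3.10.9 in Python 3.11.15.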

Additional observations from a re-analysis of the deposited data

Results flagged for a closer look

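In each named gene the highest and the lowest of the 4 high glucose libraries were looked at for a gap to the nearest other library that, as a share of the group's range, exceeded Dixon's 95% critical value. Chance flags about 1 in 20 groups, and 10 of 105 genes were flagged, 7 of them at the set 3 library. For all 7 the set 3 control was also the highest of the 3 controls. In the set 3 high glucose library Sod3 stood at 15.80 (the others at most 13.72), Ngfr at 10.87 (8.53), Angpt1 at 11.64 (10.61), Postn at 10.72 (9.09), Slc2a4 at 4.66 (3.58), Uap1 at 10.90 (10.45) and Akr1b3 at 7.32 (6.87). The set 4 library was highest for Rn4.5s, at 13.45 against at most 9.43, and its control was high as well (12.81). The set 2 library was highest for the lipid droplet gene Plin2, at 13.04 against at most 12.37, and lowest for Igf1, at 10.96 against at least 12.83.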

How the results depend on the processing

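Each result was recomputed under 17 alternatives. Limma called 0 genes under all 17, so no call could be lost. The 933 genes at an unadjusted p under 0.05 became 290 with no replicate block, 216 with no replicate block and the set 2 library included, 151 with the replicate block by title number, 560 with a block by set in 9 libraries, and 1455 with no filter on low values (23238 genes tested). Leaving out 1 set at a time gave 419 (without set 4) to 1319 (without set 3). Of the 105 named genes, 98 kept their sign under each alternative that tested them (all 17, except that Arg1 was not tested with the filter at 10), among them Txnip (0.88 to 1.41), Arrdc4 (0.31 to 0.50), Hspa1a (0.47 to 0.69) and Hspa1b (0.44 to 0.66). Most of the 105 were chosen by their values in these same libraries. A gene with 1 sign in all 3 sets, as these 4 were, cannot reverse when 1 set is left out. The count of 98 is thus no independent support. With the set 2 library and no block Cbs gave 0.18, Pecam1 -0.21, Vegfa -0.0901, Igf1 -0.19 and Igfbp4 -0.0376. By title number Cbs gave 0.58, Cdh5 0.0848, Vegfa -0.147 and Igf1 -0.32. In all 11 libraries with the block by set Cbs gave 0.0554, Mpst 0.0482 and Vegfa -0.0597. With Rn45s left out Mpst gave 0.0373, and with median centring Vegfa gave -0.0129. Leaving out 1 set put Cbs at -0.55 to 0.25, Mpst at -0.18 to 0.28, Cdh5 at -0.54 to 0.0403 and Vegfa at -0.0220 to 0.0383. The cause of these changes was not tested. Rescaling without Rn45s moved the median difference of all genes from -0.00155 to 0.04. The medians of the insulin-like growth factor list (-0.04) and the macrophage list (-0.34) were below 0 with the set 2 library and no block, against 0.14 and 0.25. The number of pairs limits the precision.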

Other observations

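Clock genes outside the main description, named here after their values were seen, included both repressors of the Bhlhe pair on the lower side: Bhlhe41 gave -0.60 beside Bhlhe40. Per2, a core repressor of the clock, gave 0.43 and Hlf, a clock output factor, 0.61. Of the 19 clock genes, 3 were higher (15.8%) and 2 lower (10.5%) in all 3 sets, beside 11.3% and 14.3% of all genes tested. The median of the clock list was 0.00471. In the unfolded protein response, Xbp1, its main transcription factor, gave 0.35, while 2 of 22 members were higher and 2 lower in all 3 sets. Adipocyte markers gave 3 of 5 higher in all 3 sets (Plin1, Adipoq and Fabp4), although their summed count was lower in set 3. There the marker Lpl, at a mean level of 13.10 in normal glucose, gave -0.74, and Fabp4, at 10.89, gave 0.20.

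The smallest unadjusted p by limma belonged to Vash1, which encodes vasohibin-1, a tubulin-trimming enzyme and inhibitor of vessel growth: 0.87, 1.37 and 1.14 in sets 3, 4 and 5 (paired difference 1.12, SE 0.160; adjusted p = 0.689). Its level was below the median of the genes tested. Frat1, which promotes Wnt signaling, gave 0.65, 1.31 and 1.16, and the methyltransferase gene Inmt 0.63, 1.07 and 1.05. None passed the adjusted threshold.

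The other lists gave these counts of members higher and lower in all 3 sets, to be read beside 11.3% and 14.3% of all genes tested. Several lay near those shares, such as cell cycle genes (7.5% and 15.0%) and NF-kB and inflammation genes (9.68% and 12.9%). Counts near those shares are no result about a list. Proteasome subunits gave 2 and 9 of 31, with 5 lower under quantile normalization and 5 lower and 5 higher with Rn45s left out. Immediate early genes gave 2 and 7 of 25 (4 lower with Rn45s left out), p53 and apoptosis genes 2 and 7 of 29, and TGF-beta and BMP genes 1 and 6 of 32. Cell cycle genes gave 3 and 6 of 40, with medians of -0.26, 0.06 and -0.01 in sets 3, 4 and 5. NF-kB and inflammation genes gave 3 and 4 of 31 and the pentose phosphate pathway 1 and 2 of 7. Of the cell type markers, endothelial genes gave 0 and 1 of 15, smooth muscle genes 0 and 0 of 8, pericyte genes 3 and 1 of 7, macrophage and leukocyte genes 2 and 0 of 11, Schwann and nerve genes 0 and 2 of 8, and epithelial genes 0 and 1 of 5.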
